A study of Mus musculus with 35 samples.

Results

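P2rx7, P2rx4, Entpd1, Nt5e, Adora2a and Cd38 code for proteins with which a CD8 T cell meets extracellular ATP, adenosine and nicotinamide adenine dinucleotide (NAD). They are 6 of the 22865 genes of the count table and were found in it by their symbols. ATP outside cells marks damage and opens the channels P2X7 (P2rx7) and P2X4 (P2rx4). The ectonucleotidase CD39 (Entpd1) cuts ATP and ADP to AMP, CD73 (Nt5e) turns AMP into adenosine, and adenosine acts on T cells through the receptor that Adora2a codes for, which raises cyclic AMP and dampens T cell responses. CD38 (Cd38) consumes NAD. In mouse T cells NAD also serves the enzyme ART2.2 (Art2b), which ADP-ribosylates P2X7 and so opens it, and P2X7 is known for controlling the survival of tissue-resident T cells.

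The libraries came from CD8 T cells of C57BL/6 mice aged 13 months that received the diet labelled ND or the diet labelled CD-HFD, and polyadenylated RNA was sequenced in bulk from its 3′ end. Of the liver, both the cells with the chemokine receptor CXCR6 (CXCR6pos) and those without it (CXCR6neg) were collected, and of the spleen the cells without the chemokine receptor CX3CR1 (CX3CR1neg). In all 32 libraries were used. The CXCR6pos cells gave 5 libraries under CD-HFD and 6 under ND, the CXCR6neg cells 6 and 4, and the spleen cells 6 and 5. Whether each replicate is an animal of its own is not in the labels, and p-values therefore measure only how far these samples spread, which may be technical. In bulk RNA, fewer cells with a transcript and less of it per cell cannot be told apart.

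Total counts ran from 15633 to 978896 per library with a median of 308123, and levels are given as CPM, which are counts scaled to a library total of 1000000. In the shallowest library, ND CXCR6pos replicate 1, 1 count is 64.0 CPM, and its Entpd1, Nt5e and Cd38 rest on 1 count each. The columns of ND CXCR6neg replicate 1 (liver) and of replicate 6 of the ND spleen were identical in every gene although they carry different labels, and both were left out. Cd3e and Cd8a, which mark CD8 T cells, had group means of 835 to 1782 and 832 to 1404 CPM. Under CD-HFD, Cxcr6 separated the fractions (685 ± 134 CPM in CXCR6pos, SD, n = 5, and 82.4 ± 29.4 in CXCR6neg, n = 6). Under ND they overlapped (491 ± 212 CPM, n = 6, and 215 ± 165, n = 4), with 191 CPM in the library labelled CXCR6pos replicate 6 and 434 CPM in the one labelled CXCR6neg replicate 4.

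P2rx7 (ENSMUSG00000029468, GRCm38 chromosome 5, 122643911 to 122691432) and P2rx4 (ENSMUSG00000029470, chromosome 5, 122707544 to 122729738) are neighbours on the plus strand, with 16111 bases between the end of the former and the start of the latter. Entpd1 (ENSMUSG00000048120) lies on chromosome 19 at 40612366 to 40741602, Nt5e (ENSMUSG00000032420) on chromosome 9 at 88327197 to 88372092, Adora2a (ENSMUSG00000020178) on chromosome 10 at 75316877 to 75334784 and Cd38 (ENSMUSG00000029084) on chromosome 5 at 43868553 to 43912375, all on the plus strand and all protein-coding. The sequence before the start of P2rx7 and of P2rx4 is shown because these genes for related channels lie side by side, and P2rx7 was called between the diets in CXCR6pos while P2rx4 was not. Both starts of Entpd1 in RefSeq are shown because counts from the 3′ end do not tell which start was used. RefSeq (GRCm38.p6) promoter windows matched 5 of the 6 genes, and each sequence is the stretch of the 250 bases before the start that no annotated exon covers, on the plus strand, 5′ to 3′, with motif matches in capitals. They are chr5:122643677-122643910 for P2rx7 (its first start), chr5:122707294-122707543 for P2rx4, chr19:40612234-40612365 for the first start of Entpd1 and chr19:40659520-40659769 for the second.
P2rx7: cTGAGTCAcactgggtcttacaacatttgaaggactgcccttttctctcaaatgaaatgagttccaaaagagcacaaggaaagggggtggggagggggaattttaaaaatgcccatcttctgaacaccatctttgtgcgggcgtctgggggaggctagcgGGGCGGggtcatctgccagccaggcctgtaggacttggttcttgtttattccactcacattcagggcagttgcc
P2rx4: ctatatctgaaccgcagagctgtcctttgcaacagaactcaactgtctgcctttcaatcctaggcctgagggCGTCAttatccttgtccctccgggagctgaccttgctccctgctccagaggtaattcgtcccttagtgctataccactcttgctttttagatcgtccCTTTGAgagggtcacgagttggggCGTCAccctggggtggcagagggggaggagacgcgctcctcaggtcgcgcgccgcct
Entpd1, first start: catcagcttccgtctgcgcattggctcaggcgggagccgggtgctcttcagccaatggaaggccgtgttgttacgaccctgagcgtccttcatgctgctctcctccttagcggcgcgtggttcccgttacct
Entpd1, second start: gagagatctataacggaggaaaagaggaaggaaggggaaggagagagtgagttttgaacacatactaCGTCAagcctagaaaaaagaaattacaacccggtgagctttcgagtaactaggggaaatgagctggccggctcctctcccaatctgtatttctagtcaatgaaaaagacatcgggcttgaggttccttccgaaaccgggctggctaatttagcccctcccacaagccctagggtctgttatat

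The motifs were searched on both strands as TGGAAA (the NFAT core, in 18.6% of 32851 RefSeq windows of 250 bases), TGANTCA (AP-1, 6.75%), AAAGGTCA (NR4A, 1.34%), TGTGGT (RUNX, 14.04%), CTTTGA (TCF, 13.8%), GGGCGG (GC box, 32.7%), the NF-kB decamer (0.356%) and TGACG (the core of the cyclic AMP response element, 17.8%). The window of the first P2rx7 start held 1 AP-1 match at -249 to -243 from the RefSeq start, written TGAGTCA, and GC box matches beginning at -90 and, within bases not shown, at -11. That of the second P2rx7 start, which is not shown, held 1 TCF match at -99 and none of the others, and counts from the 3′ end do not tell these starts apart either. The P2rx4 window had 1 TCF match at -81 and cores of the cyclic AMP response element at -178 and -57, read on the minus strand. Each Entpd1 window held 1 such core, at -135 before the first start, where it crosses the border of the stretch shown, and at -183 before the second. A match describes these letters and is no evidence of binding.

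CD-HFD liver CXCR6pos cells differed from ND CXCR6pos cells in 4 of these genes, and for Entpd1, Cd38 and Nt5e also from CD-HFD CXCR6neg and CD-HFD spleen cells. Compared with ND CXCR6pos cells they held more Entpd1 (3.28-fold) and Cd38 (2.60-fold), less P2rx7 (7.66-fold) and almost no Nt5e (1 count in all 5 libraries), whereas Adora2a and P2rx4 did not pass the test. Of 5 genes tested, 4 passed the threshold of an adjusted p under 0.05 in that comparison, in which 11.3% of all 6174 genes tested did. P2rx4 was too low for the test across all genes and was compared on its own. In the plot of CPM by library the groups can be compared gene by gene.

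**Figure D1:**
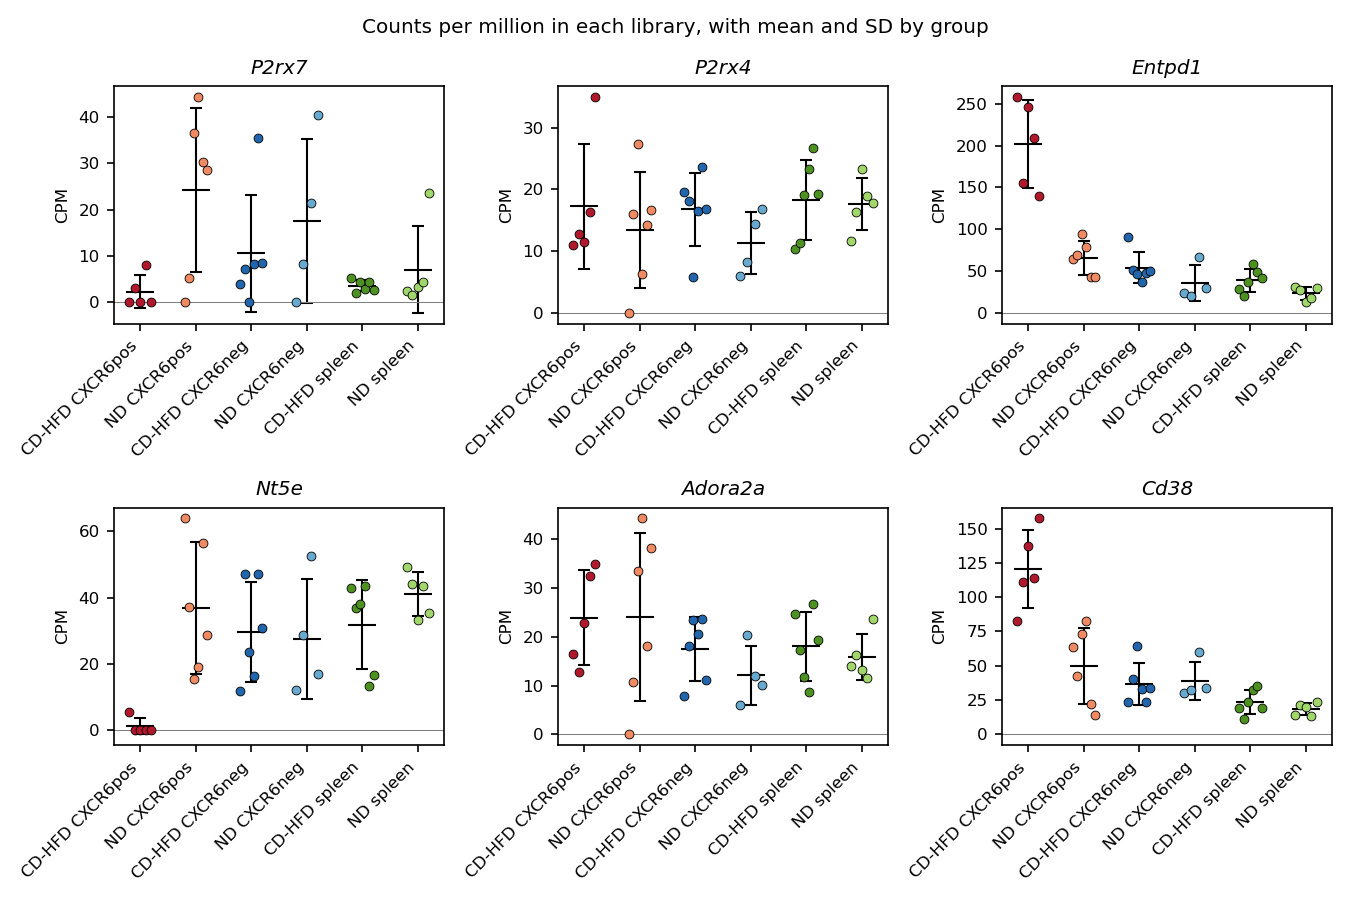
CPM of each gene (y axis, linear) in each of the 32 libraries (points) of the 6 groups (x axis), with the group mean (bar) and SD (whiskers). Entpd1 in CD-HFD CXCR6pos (140 to 258 CPM) lay above every other library, and Nt5e was at 0 in 4 of the 5 libraries of that group.

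The ATP channels are described first. P2rx7 was at 0, 3.17, 0, 8.13 and 0 CPM in CD-HFD CXCR6pos replicates 1 to 5, which is 4 counts in all. In ND CXCR6pos it ranged from 0 to 44.3 CPM with a median of 29.5 (54 counts). The groups overlapped at the low end, through ND CXCR6pos replicates 1 and 2 at 0 and 5.33 CPM, while the 4 other ND libraries (28.6 to 44.3 CPM) lay above every CD-HFD library. P2rx7 fell with CD-HFD in CXCR6pos (log2 fold change -2.94 ± 0.71, SE, adjusted p = 0.00138), and the ratio of pooled counts was 8.41 with a 95% counting interval of 3.10 to 32.0, which covers counting error only. Without CD-HFD CXCR6pos replicate 4, which held 3 of the 4 counts, the log2 fold change was -4.13 (adjusted p = 0.00162). The call was kept in all 16 alternatives that gave a value for P2rx7, whereas 21 gave one for Entpd1. Alternatives without a value could not overturn the call, so whether it rested on single ND libraries is not settled.

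In the other groups P2rx7 was lower than in ND CXCR6pos by its mean, with wide spreads. ND CXCR6neg replicates 2 to 5 held 0, 8.16, 21.5 and 40.4 CPM, and CD-HFD CXCR6neg ranged from 0 to 35.4 CPM with a median of 7.74. The upper end of the CD-HFD range was 3 counts in replicate 5, and the next highest library held 8.43 CPM. Only through replicate 5 did the ranges overlap almost entirely. The change with diet in CXCR6neg was not past the threshold (-1.28 ± 0.65, adjusted p = 0.587). Under CD-HFD the difference of CXCR6pos from CXCR6neg did not pass either (-1.07 ± 0.93, adjusted p = 0.578). In the spleen P2rx7 was low under both diets, at 2.34, 1.63, 3.32, 4.36 and 23.7 CPM under ND and from 2.04 to 5.19 CPM with a median of 3.65 under CD-HFD. Replicate 5 alone set the upper end of the ND spleen range.

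ND CXCR6pos cells held 6.01-fold more P2rx7 than ND spleen cells (2.59 ± 0.55, adjusted p = 0.00021), and the ranges overlapped through ND spleen replicate 5 and the low libraries of CXCR6pos. Without ND spleen replicate 5 the difference was 3.19 (adjusted p = 2.78e-05). Under CD-HFD the same contrast of liver CXCR6pos and spleen was 0.01 ± 0.66 (adjusted p = 0.998), with 4 counts in the liver libraries. The change with diet in CXCR6pos and that in the spleen differed by -2.58 ± 1.11 on the log2 scale, which did not pass the threshold (adjusted p = 0.214). P2rx7 entered the test through exactly 4 libraries at or above the 32.5 CPM that the filter on low counts asks for (2 of ND CXCR6pos, 1 of CD-HFD CXCR6neg and 1 of ND CXCR6neg), the smallest number that it accepts. No CD-HFD CXCR6pos or spleen library was among them, so the filter could favour a difference from those groups. The CD-HFD CXCR6neg library was replicate 5, where 35.4 CPM is 3 counts.

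P2rx4 codes for a channel that opens at lower ATP than P2X7, and only 1 library reached 32.5 CPM. It was at 11.0, 12.7, 11.5, 16.3 and 35.0 CPM in CD-HFD CXCR6pos replicates 1 to 5 and from 0 to 27.4 CPM with a median of 15.1 in ND CXCR6pos. The highest value was 2 counts in the shallow replicate 5, and all groups overlapped. Group means lay between 11.3 and 18.3 CPM. In exact two-sided permutation tests of 9 comparisons the p ran from 0.103 to 0.937 and the adjusted p from 0.793 to 0.937, where the smallest p the designs allow is 0.00216 to 0.00794. Between the diets in CXCR6pos, the comparison in which its neighbour P2rx7 fell, P2rx4 differed by 3.85 CPM (17.3 under CD-HFD, 13.4 under ND, exact permutation p = 0.526, adjusted p = 0.937). The ratio of pooled P2rx4 counts there was 0.917 with a counting interval of 0.464 to 1.75, opposite in direction to the means. The interval covers counting error only and does not give the smallest difference that the permutation test could detect. A change of P2rx4 was therefore not excluded.

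The enzymes that make adenosine moved in opposite directions in CD-HFD CXCR6pos cells. Entpd1 was at 258, 156, 246, 209 and 140 CPM in the 5 libraries of that group. It ranged from 42.5 to 94.4 CPM with a median of 66.6 in ND CXCR6pos and from 37.0 to 90.3 CPM with a median of 48.9 in CD-HFD CXCR6neg. The lowest CD-HFD CXCR6pos library lay above the highest of either group, so that neither overlapped with it. Entpd1 rose 3.28-fold with diet (1.71 ± 0.22, adjusted p = 3.95e-09) and was 3.76-fold higher in CXCR6pos than in CXCR6neg under CD-HFD (1.91 ± 0.24, adjusted p = 8.41e-10). In the latter comparison 3 of the 5 genes passed the threshold, against 11.1% of all genes tested.

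ND spleen cells had the lowest mean of Entpd1. The spleen libraries were at 30.4, 27.8, 13.3, 17.4 and 29.6 CPM under ND and from 20.4 to 58.1 CPM with a median of 38.9 under CD-HFD. The ND CXCR6neg libraries held 24.1, 20.4, 66.8 and 30.3 CPM, and the highest of them was replicate 4, whose Cxcr6 was also the highest of its group. The order of the group means was CD-HFD CXCR6pos, ND CXCR6pos, CD-HFD CXCR6neg, CD-HFD spleen, ND CXCR6neg and ND spleen (202, 65.4, 53.8, 39.0, 35.4 and 23.7 CPM). The first and second did not overlap, and each later neighbour overlapped with the one before it. Under ND, Entpd1 was 2.66-fold higher in CXCR6pos than in the spleen (1.41 ± 0.29, adjusted p = 0.000135) with no overlap, and its difference between the liver fractions did not pass the threshold (0.65 ± 0.31, adjusted p = 0.568). Without the libraries labelled ND CXCR6pos replicate 6 and ND CXCR6neg replicate 4 the latter was 1.40 (adjusted p = 0.0342), a setting chosen after seeing the data.

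Nt5e gave the opposite picture. CD-HFD CXCR6pos held 5.49 CPM in replicate 1, which is 1 count, and 0 in replicates 2 to 5. For single libraries a count of 0 allows levels of up to 9.52, 17.2, 8.13 and 52.5 CPM (3 counts), so replicate 5 on its own says little. Nt5e ranged from 15.2 to 64.0 CPM with a median of 32.9 in ND CXCR6pos, from 11.8 to 47.3 CPM with a median of 27.2 in CD-HFD CXCR6neg and from 13.3 to 43.6 CPM with a median of 37.4 in CD-HFD spleen. None of these 3 groups overlapped with CD-HFD CXCR6pos. ND CXCR6neg held 12.1, 28.6, 52.5 and 16.8 CPM and ND spleen 49.1, 44.1, 33.2, 43.6 and 35.5 CPM, so that the ranges of the other groups overlapped with each other.

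The pooled counts of Nt5e were 1 in CD-HFD CXCR6pos against 59 in ND CXCR6pos, and the level was lower by a ratio of 36.8 with a 95% counting interval of 6.35 to 1476. Against CD-HFD CXCR6neg (39 counts) the ratio was 30.9 (5.24 to 1253), and against CD-HFD spleen (119 counts) 38.8 (6.83 to 1546). With 1 count the size of the change is loosely bounded, while its direction passed the test in each comparison (edgeR adjusted p = 7.58e-07, 1.26e-05 and 2.63e-08). Without CD-HFD CXCR6pos replicate 1 every library left in that group was at 0, and the 3 calls were kept, with fitted log2 values of -6.53, -6.31 and -6.60 in place of -4.70, -4.47 and -4.77, which bound no fold. The remaining Nt5e comparisons, between the liver fractions under ND, between the diets in CXCR6neg and in the spleen, and between liver and spleen elsewhere, had log2 fold changes of -0.45 to 0.08 and did not pass the threshold.

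Set against Entpd1 in the same libraries, there were 0.446 counts of Nt5e per 100 counts of Entpd1 in CD-HFD CXCR6pos, with 0 to 2.13 in single libraries. There were 54.1 in ND CXCR6pos (16.1 to 133), 51.3 in CD-HFD CXCR6neg (13.0 to 100) and 78.3 in ND CXCR6neg (50 to 140). The spleen groups had 105 (27.3 to 180) under CD-HFD and 184 (120 to 250) under ND. This share compares groups and does not compare the levels of the 2 transcripts. The plot of both genes by library shows the CD-HFD CXCR6pos libraries alone at high Entpd1 and almost no Nt5e.

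**Figure D2:**
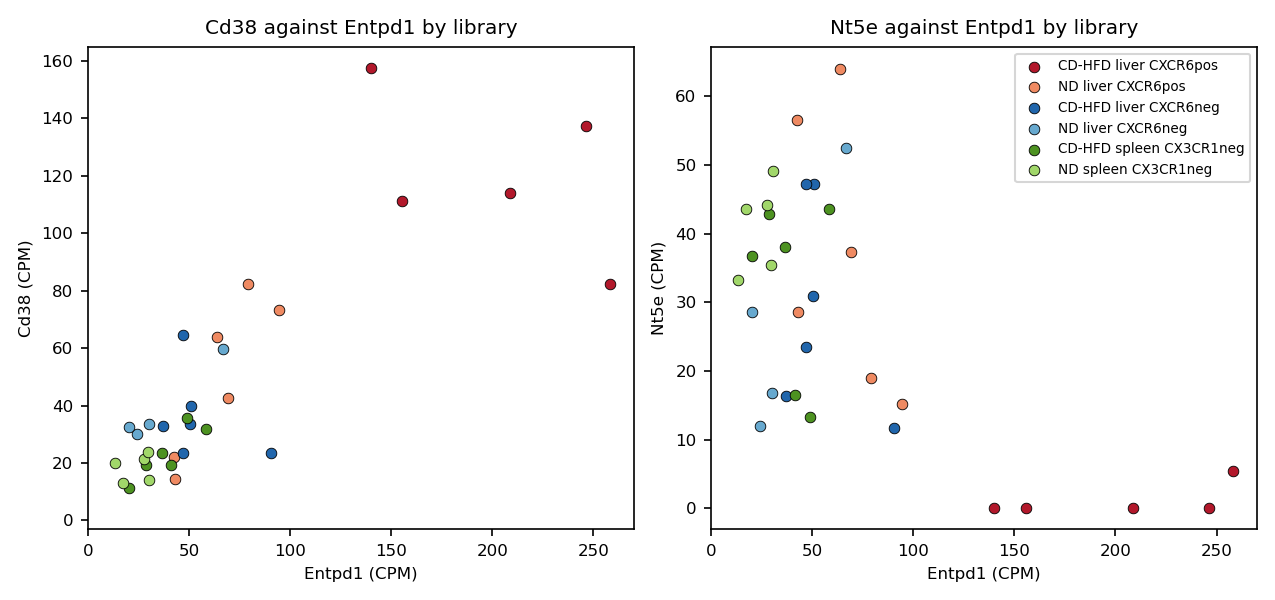
Cd38 (left) and Nt5e (right) against Entpd1, all in CPM on linear axes, with 1 point per library coloured by group. The 5 CD-HFD CXCR6pos libraries, at 140 to 258 CPM of Entpd1, had 82.4 to 157 CPM of Cd38 and 0 to 5.49 CPM of Nt5e.

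Adora2a, the receptor for the product of both enzymes, showed no difference past the threshold in any of the 11 comparisons. It was at 16.5, 12.7, 22.9, 32.5 and 35.0 CPM in CD-HFD CXCR6pos and from 0 to 44.3 CPM with a median of 25.9 in ND CXCR6pos. The other groups lay between 6.03 and 26.7 CPM, within the range of ND CXCR6pos. The change with diet in CXCR6pos was -0.36 ± 0.40 (adjusted p = 0.69). Adora2a was nearest to the threshold between ND CXCR6pos and ND spleen (0.97 ± 0.38, adjusted p = 0.0707), where it passed without ND CXCR6pos replicate 2 (1.09) or replicate 5 (1.15). It entered the test through 5 libraries at or above 32.5 CPM, 3 of ND CXCR6pos and 2 of CD-HFD CXCR6pos. The filter could therefore favour a difference of CXCR6pos from CXCR6neg or spleen.

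Cd38, like Entpd1, had its highest mean in CD-HFD CXCR6pos and the next in ND CXCR6pos, while the order of the other groups differed. It was at 82.4, 111, 137, 114 and 157 CPM in CD-HFD CXCR6pos, and ranged from 14.3 to 82.3 CPM with a median of 53.3 in ND CXCR6pos and from 23.6 to 64.7 CPM with a median of 33.3 in CD-HFD CXCR6neg. CD-HFD CXCR6pos did not overlap with either group, but its lowest library, replicate 1, was level with the highest of ND CXCR6pos, replicate 4. Cd38 rose 2.60-fold with diet in CXCR6pos (1.38 ± 0.27, adjusted p = 5.36e-05) and was 3.16-fold higher in CXCR6pos than in CXCR6neg under CD-HFD (1.66 ± 0.29, adjusted p = 7.34e-06). ND CXCR6neg held 30.2, 32.7, 59.7 and 33.7 CPM, and replicate 4 was again the highest.

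In the spleen Cd38 was low, at 14.04, 21.2, 19.9, 13.1 and 23.7 CPM under ND and from 11.2 to 35.5 CPM with a median of 21.4 under CD-HFD. Under CD-HFD, liver CXCR6pos cells exceeded spleen cells 5.45-fold for Cd38 (2.45 ± 0.27, adjusted p = 1.52e-12) and 5.85-fold for Entpd1 (2.55 ± 0.22, adjusted p = 3.47e-17). With Nt5e, 3 of 5 genes passed there, where 25.7% of all genes did. Under ND the liver CXCR6pos excess was 2.49-fold for Cd38 (1.32 ± 0.33, adjusted p = 0.00228), and with P2rx7 and Entpd1 again 3 of 5 genes passed, against 14.4% of all genes. Across the 32 libraries Spearman's rho between Cd38 and Entpd1 was 0.80, given as a description, since the libraries share groups and depth.

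The test of each gene in each comparison is drawn in the plot of log2 fold changes.

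**Figure D3:**
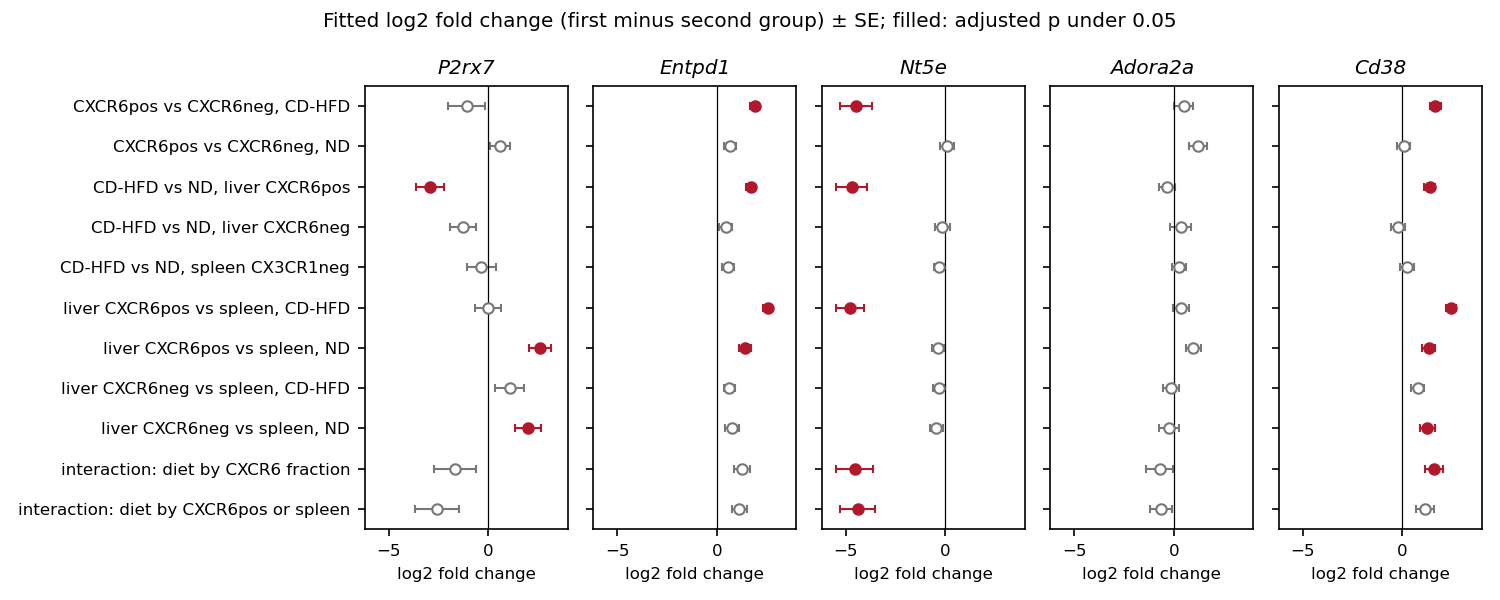
Fitted log2 fold change (x axis, first minus second group) with SE (whiskers) of the 5 genes tested (panels) in the 11 comparisons (rows), filled where the adjusted p was under 0.05. Entpd1 and Cd38 lie to the right and Nt5e to the left wherever CD-HFD CXCR6pos is the first of 2 groups; fitted values of Nt5e that involve this group rest on 1 count and bound no fold.

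Whether the diet acted alike on the groups was tested directly. The change of Nt5e with diet differed between CXCR6pos and CXCR6neg (edgeR adjusted p = 0.00119) and between CXCR6pos and spleen (adjusted p = 0.000212), being lower in CXCR6pos both times. Its fitted differences, -4.55 and -4.40, were -6.38 and -6.24 without CD-HFD CXCR6pos replicate 1, and the first was -5.15 without ND CXCR6neg replicate 4, with the calls kept. The change of Cd38 was larger in CXCR6pos than in CXCR6neg (1.59 ± 0.44, adjusted p = 0.0412) and did not pass against the spleen (1.13 ± 0.45, adjusted p = 0.168). For Entpd1 the differences were 1.26 ± 0.40 (adjusted p = 0.0966) and 1.14 ± 0.38 (adjusted p = 0.0728), so a different response of Entpd1 between groups was not shown. Those of P2rx7 were -1.66 ± 1.06 (adjusted p = 0.61) and -2.58 ± 1.11 (adjusted p = 0.214). A fall of P2rx7 particular to CXCR6pos was therefore not shown. Of the 5 genes 2 passed the first test and 1 the second, in which 1.44% and 3.98% of all genes did.

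The Cd38 call in the first of these tests was kept in 11 of 32 alternatives, with an adjusted p of 0.00572 to 0.513. It was lost without ND CXCR6pos replicate 5 or 6, CD-HFD CXCR6pos replicate 2, 3, 4 or 5, ND CXCR6neg replicate 4, or CD-HFD CXCR6neg replicate 1, 2, 4, 5 or 6, with values of 1.27 to 1.62, and without both ND libraries whose Cxcr6 went against their labels (0.98). Entpd1 passed that test without ND CXCR6pos replicate 3 (1.44) or CD-HFD CXCR6neg replicate 1 (1.49). Against the spleen Entpd1 passed without ND CXCR6pos replicate 3 (1.33), CD-HFD CXCR6pos replicate 2 (1.27) or CD-HFD spleen replicate 4 (1.29), and Cd38 without ND CXCR6pos replicate 4 (1.46).

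In 4 comparisons no gene passed. Between the liver fractions under ND edgeR called 0 of 5 genes (0.0324% of all genes), with 2 at an unadjusted p under 0.05, Entpd1 and Adora2a. Between the diets in CXCR6neg it called 0 (0.47% of all genes), with P2rx7 alone under 0.05 unadjusted, and in the spleen 0 (0.0324%), with 0 unadjusted. Between CXCR6neg and spleen under CD-HFD it called 0 (10.4%), with Entpd1 and Cd38 under 0.05 unadjusted. DESeq2 called 0 in each of them.

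Under ND, CXCR6neg cells held more P2rx7 (2.01 ± 0.65, adjusted p = 0.0415) and Cd38 (1.25 ± 0.37, adjusted p = 0.0226) than spleen cells, 2 of 5 genes where 6.87% of all genes passed. Both calls depended on single libraries. That of P2rx7 was lost without ND CXCR6neg replicate 4 (1.96) or 5 (1.38) or without ND spleen replicate 1 (1.85), 2 (1.69), 3 (1.94) or 4 (1.95), and without ND spleen replicate 5 the value was 2.61. That of Cd38 was lost without ND CXCR6neg replicate 4 (0.91) or ND spleen replicate 1 (1.19) or 4 (1.09). DESeq2 called neither.

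Genes of other cell types were read beside these results. CD39 and CD73 are also known from regulatory T cells, and of that list Ctla4, Ikzf2 and Izumo1r rose with diet in CXCR6pos (3.47, 2.90 and 2.25 on the log2 scale), so that the summed level of the 5 listed genes was 286 to 573 CPM in CD-HFD CXCR6pos, 28.3 to 85.3 in ND CXCR6pos and 110 to 330 in CD-HFD CXCR6neg. The defining genes Foxp3 and Cd4 had 1 count each in the 5 libraries of CD-HFD CXCR6pos. The summed level of 8 plasmacytoid dendritic cell genes was 122 to 206 CPM in CD-HFD CXCR6pos and 756 to 1332 in CD-HFD CXCR6neg. In ND CXCR6pos it was 107 to 924 CPM with a median of 137. The 924 CPM came from replicate 6, whose Cxcr6 went against its label. The B cell list was also lower in CD-HFD CXCR6pos than in CXCR6neg (103 to 135 against 465 to 703 CPM). So was the NK cell list (162 to 297 against 494 to 620 CPM). Ccr9 and Spib of the plasmacytoid dendritic cell list and Klra8 of the NK cell list were at 0 in CD-HFD CXCR6pos alone. Pax5 was at 0 in CXCR6pos under both diets, and Ncr1 was at 0 in every group but CD-HFD spleen. The B cell genes Cd79a and Ms4a1 were at 0 in CD-HFD CXCR6neg, and Cd79a and Ebf1 in ND CXCR6neg. CD73 is also known from endothelial cells, and the summed level of 6 endothelial genes was 17.2 to 27.5 CPM in CD-HFD CXCR6pos, 24.4 to 128 in ND CXCR6pos, 18.2 to 106 in CD-HFD CXCR6neg and 30.3 to 62.9 in CD-HFD spleen. Of that list Fcgr2b, which B cells and macrophages also express, was lower in CD-HFD CXCR6pos than in ND CXCR6pos (-2.05, adjusted p = 0.0065). Against CD-HFD spleen it was lower as well (-1.82, adjusted p = 0.00634). Stab2 was at 0 in every liver group, and Cdh5 was at 0 in CD-HFD CXCR6pos and in ND spleen. The part of all these cells in the changes of Entpd1, Cd38 and Nt5e was not tested. Macrophages and Kupffer cells could carry Entpd1 and P2rx7. Of 9 genes of these cells, 5 were at 0 in CD-HFD CXCR6pos, 5 in ND CXCR6pos and 6 in CD-HFD CXCR6neg. The sum was 0 to 22.0 CPM in CD-HFD CXCR6pos, 0 to 10.1 in ND CXCR6pos and 0 to 11.8 in CD-HFD CXCR6neg. In CD-HFD spleen it was 24.8 to 46.8 CPM. The part of these cells was not tested either.

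The wider list of 54 genes of extracellular nucleotides, adenosine and NAD held 14 that were tested. In CXCR6pos against CXCR6neg under CD-HFD 3 were higher and 2 lower, and with diet in CXCR6pos 3 rose and 3 fell. The medians over the 14 were -0.02 and -0.03 on the log2 scale, beside medians of -0.02 to 0.00 over all genes in the 11 comparisons. Of all genes tested 11.1% and 11.3% passed there. Under ND 0 of the 14 passed between the liver fractions, where 0.0324% of all genes did, so nothing about the list is read from it. Beyond Entpd1, Cd38 and Nt5e the first comparison held Art2b and Dpp4, and the second, with P2rx7 as well, Art2b and Entpd5.

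Art2b, the ADP-ribosyltransferase gene named above, has a close copy in Art2a with which reads may be shared. It was 2.05-fold higher in CD-HFD CXCR6pos (52.5 to 126 CPM) than in CXCR6neg (23.5 to 67.4 CPM; 1.04 ± 0.29, adjusted p = 0.00691). It rose 1.73-fold with diet from 0 to 60.9 CPM in ND CXCR6pos (0.79 ± 0.27, adjusted p = 0.0362). In both comparisons the ranges overlapped. The first call was lost without CD-HFD CXCR6pos replicate 3 (0.84), and the second without ND CXCR6pos replicate 4, 5 or 6 or CD-HFD CXCR6pos replicate 2 or 3 (0.59 to 0.80), by DESeq2 (0.81), with no filter (0.74) and without both ND libraries of doubtful fraction (0.75). Dpp4, whose product CD26 binds adenosine deaminase at the cell surface, was 2.18-fold lower in CD-HFD CXCR6pos than in CXCR6neg (-1.13 ± 0.35, adjusted p = 0.0186), a call kept in 16 of 21 alternatives and lost, among others, without CD-HFD CXCR6pos replicate 4 or CD-HFD CXCR6neg replicate 3 or 6 (-1.04 to -0.91). Its libraries held 17.5 to 27.5 CPM in the former and 25.4 to 94.1 in the latter and overlapped. Entpd5, a nucleotidase of the endoplasmic reticulum, fell 2.16-fold with diet in CXCR6pos (-1.11 ± 0.34, adjusted p = 0.0187), a call lost without ND CXCR6pos replicate 2 or 4 or CD-HFD CXCR6pos replicate 1, 2 or 3 (-1.12 to -0.91). It ranged from 5.73 to 87.5 CPM under CD-HFD and from 0 to 85.3 CPM under ND, almost the same range. The medians were 25.4 CPM under CD-HFD and 54.2 CPM under ND, and both groups include a shallow library.

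**Figure D4:**
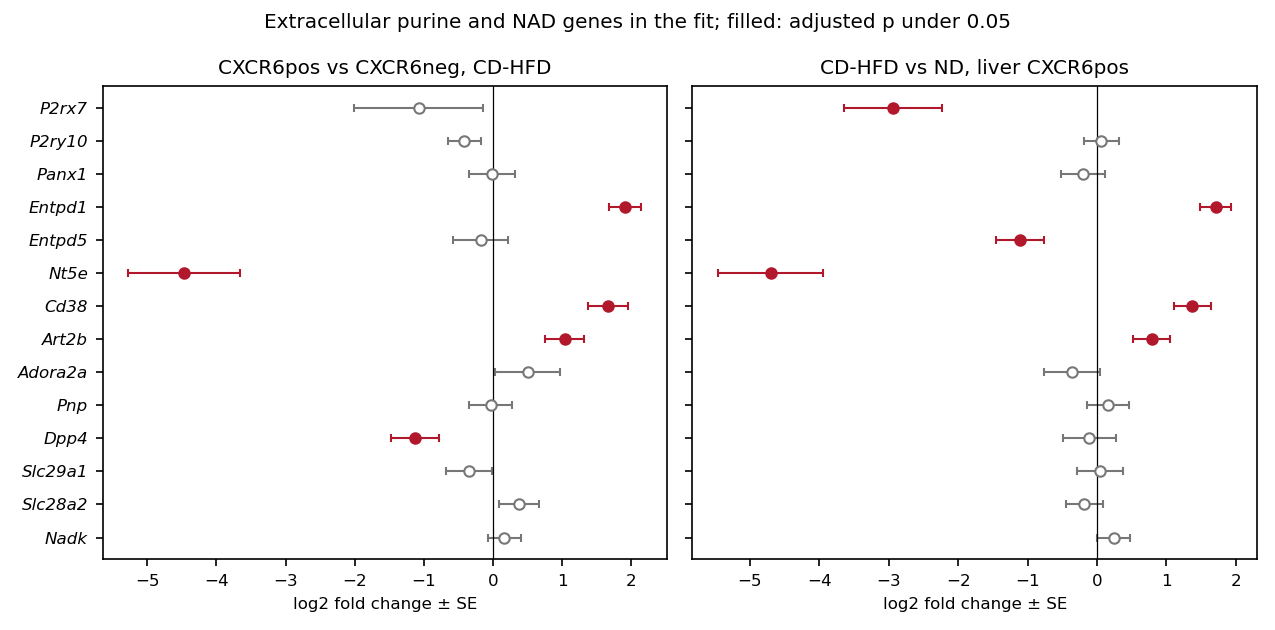
Fitted log2 fold change (x axis) with SE (whiskers) of the 14 tested genes of the extracellular nucleotide, adenosine and NAD list (y axis) in 2 comparisons (panels), filled where the adjusted p was under 0.05. In both panels Entpd1, Cd38 and Art2b lie to the right and Nt5e to the left, and Adora2a and Panx1 are open.

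By Spearman's rho over the 32 libraries, with no test, the genes whose levels were most like those of Entpd1 were Serpina3g, a protease inhibitor (0.88), Ccl5, a chemokine (0.84), and Nkg7, a cytotoxic granule protein (0.84). Those most like Cd38 were Rgs1, a regulator of G protein signalling (0.84), Entpd1 (0.80) and Serpina3g (0.80). P2rx7 was most like Cd226, an activating receptor (0.84), Emp3 (0.77) and Klra9, of the Ly49 family with near-identical copies (0.76). Nt5e was most like Aqp9, an aquaglyceroporin (0.75), Reck (0.73) and Epsti1 (0.69), and Adora2a was less closely matched, by Fdx1 (0.64), Zbtb8os (0.63) and Neil1 (0.62). Nt5e had a rho of -0.45 with Entpd1 and -0.52 with Cd38.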

How the data were processed

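Bulk 3′ libraries of sorted CD8 T cells carried sample barcodes and unique molecular identifiers, per the labels' protocols. The authors deposited raw counts, 1 whole number for each symbol and library. Per the submitters' processing notes the authors used the build GRCm38.p6 and DESeq2 1.14.1. Neither aligner nor counting program was given in the sources used here, and it is not stated there if strand was used or if molecules were counted instead of reads.

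Of 35 labelled samples, 34 matched a column by name, and 2 identical columns were left out. CD-HFD CXCR6pos replicate 6 was not analysed here, and 1 further column could be matched to no label and was left out. CPM divide a count by its library's total. Testing used edgeR 4.0.16 in R 4.3.3 and its quasi-likelihood fit (TMM, filterByExpr, robust, 6 groups in 1 fit, 6174 genes, Benjamini-Hochberg adjustment over them, threshold 0.05). The script was tested on simulated data. The changed genes there were drawn from genes with more counts than P2rx7 or P2rx4, so genes as low as these were not covered. P2rx4, removed by the filter, was compared by exact permutation of CPM. The biological coefficient of variation was 0.122. Coordinates are those of GENCODE M21.

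The 6 genes are named throughout. Of the wider list, genes past the threshold between the CD-HFD liver fractions, between the diets in CXCR6pos or in an interaction are named, and for likeness the 3 highest correlations among genes with a mean of at least 20 CPM. The genes, lists and tests were chosen with earlier results of these data known. Alternatives were DESeq2 1.42.0, other scaling, no filter, fewer groups, replicate blocks and left-out libraries.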

Additional observations from a re-analysis of the deposited data

Results flagged for a closer look

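Of 36 sets of a gene and a group, 6 had 1 library far from the rest by Dixon's criterion. Chance meets it in about 1 in 20 groups of normally distributed values. That rate need not hold for low counts in libraries of unequal depth. P2rx7 was at 35.4 CPM (3 counts) in CD-HFD CXCR6neg replicate 5, where the nearest library had 8.43. It was at 23.7 CPM (4 counts) in ND spleen replicate 5, where the nearest had 4.36. P2rx4 was at 35.0 CPM in CD-HFD CXCR6pos replicate 5 (nearest 16.3). Nt5e was at 5.49 CPM in CD-HFD CXCR6pos replicate 1, the library with the group's 1 count (nearest 0). With 4 libraries at 0 this flag was fixed in advance. Entpd1 was at 90.3 CPM in CD-HFD CXCR6neg replicate 1 (nearest 50.9), and Cd38 at 59.7 CPM in ND CXCR6neg replicate 4 (nearest 33.7), the library with the most Cxcr6 of its group.

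In a test of the difference itself, the change with diet differed in 3 results. They were Nt5e between CXCR6pos and CXCR6neg (fitted difference -4.55 on the log2 scale, adjusted p = 0.00119) and between CXCR6pos and spleen (-4.40, adjusted p = 0.000212), and Cd38 between CXCR6pos and CXCR6neg (1.59, adjusted p = 0.0412). The fitted values of Nt5e rest on 1 count in CD-HFD CXCR6pos and bound no fold. The Cd38 call was kept in 11 of 32 alternatives, and was lost by DESeq2 (1.53, adjusted p = 0.105).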

How the results depend on the processing

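Depth limits P2rx7, P2rx4, Adora2a and the size of the fall of Nt5e, since many liver libraries hold few counts of them. A pairing of libraries by replicate number was not seen. Over 29 pairs with the same number and diet the correlation of deviations ran from -0.04 to 0.08. Of 32 libraries, 6 correlated best with their own number. At a median of 308123 counts per library, counting error could hide a shared animal, so this check does not decide whether the libraries are paired. Under the replicate block by number and within diet Dpp4 between the CD-HFD liver fractions was -1.003 and -0.97 (adjusted p = 0.0514 and 0.0719). The calls of Entpd1, Cd38 and Nt5e in CD-HFD CXCR6pos against CXCR6neg, ND CXCR6pos and spleen were kept in every alternative that gave a value (20 to 22 each), as was that of P2rx7 with diet in CXCR6pos (16).

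The difference in diet response between the liver fractions, with 2 genes called, held 1 with no filter, with only its own groups, with the replicate block by number or within diet, without the shallow libraries, with the identical columns kept in both groups or in the liver, and without the 2 ND libraries of doubtful fraction. It held 0 by DESeq2, which gave Nt5e no adjusted p. CXCR6neg against spleen under ND, with 2 called, held 0 by DESeq2, with only its own groups, with the identical columns kept in both groups or in the spleen and without the doubtful libraries, and 1 with either replicate block or the identical column in the liver. With only the groups of the comparison, the count was 2 for diet in CXCR6pos, where the filter removed P2rx7 and Nt5e, and 1 for CXCR6pos against spleen under ND. The difference in diet response between CXCR6pos and spleen, with 1 called, held 2 with the identical columns in both groups and 3 with them in the spleen. CXCR6pos against CXCR6neg under ND held 1 without the doubtful libraries. Keeping the identical column in 1 group and leaving out the doubtful libraries were chosen after seeing the data; other causes were not tested.

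Leaving out 1 library at a time gave 1 to 3 calls for the difference between the fractions, 1 to 2 for that between CXCR6pos and spleen, and 0 to 2 for CXCR6neg against spleen under ND. Under CD-HFD the last gave 0 to 1, the 1 being Entpd1 without CD-HFD spleen replicate 4 (0.79, adjusted p = 0.0464).

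Among log2 values not past the threshold, some changed sign. P2rx7 in CXCR6pos against spleen under CD-HFD was -0.067 with no filter, -0.14 and -0.13 with the replicate block by number and within diet, and -1.19 to 0.26 with 1 library left out. Cd38 with diet in CXCR6neg was 0.051 with the block by number, 0.13 without the doubtful libraries and -0.39 to 0.13 with 1 left out, and Nt5e there 0.48 without the doubtful libraries and -0.40 to 0.47 with 1 left out. Nt5e between the ND liver fractions was -0.022 and -0.027 with the identical columns in both groups and in the liver, and -0.33 to 0.69 with 1 left out, where Cd38 was -0.24 to 0.40. Adora2a in CXCR6neg against spleen was 0.067 under ND with the identical column in the liver and -0.26 to 0.0093 under CD-HFD with 1 left out. P2rx7 with diet in the spleen was -0.67 to 0.25 with 1 left out.

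Counts over all genes also moved. Between the ND liver fractions, 2 genes in the fit used, 0 passed with RLE scaling, with only those groups or without the shallow libraries, 18 with no filter, 15 by DESeq2, 14 and 67 with the block by number and within diet, 14 with the identical column in the liver, 1 with it in the spleen, 90 without the doubtful libraries, and 0 to 58 with 1 left out. With diet in CXCR6neg, 29 in the fit used, the counts were 47 with only those groups, 55 and 53 with the identical columns in both groups and in the liver, 9 without the doubtful libraries and 8 to 45 with 1 left out. With diet in the spleen, 2 in the fit used, they were 8 with no filter and 0 to 5 elsewhere. For CXCR6neg against spleen under ND, 424 in the fit used, they were 209 and 245 with the identical columns in both groups and in the liver. For the diet response between the fractions, 89 in the fit used, there were 53 without the doubtful libraries.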

Other observations

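P2ry10, a G protein-coupled receptor of lysophospholipids that is grouped by its sequence with the nucleotide receptors, was chosen here after its values were seen. It rose 2.33-fold with CD-HFD in CXCR6neg (1.22 ± 0.27, adjusted p = 0.00682), from 33.7 to 60.3 CPM under ND to 82.3 to 153 CPM under CD-HFD with no overlap, while in CXCR6pos its change was 0.06 ± 0.25 (adjusted p = 0.927). The difference between these changes did not pass the threshold (-1.15 ± 0.37, adjusted p = 0.0966). Without ND CXCR6neg replicate 5 the rise was 1.08 (adjusted p = 0.0886). P2ry10 was also higher in liver CXCR6neg than in spleen under CD-HFD (2.03 ± 0.24, adjusted p = 1.16e-11), where the spleen libraries held 18.4 to 35.5 CPM. Liver CXCR6pos likewise exceeded spleen under CD-HFD (1.61 ± 0.27, adjusted p = 4.29e-07) and under ND (1.56 ± 0.27, adjusted p = 2.27e-06). Between CXCR6neg and spleen under ND the difference did not pass the threshold (0.83 ± 0.32, adjusted p = 0.116).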
